A study of Mus musculus with 8 samples.

Results

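Kl, Dipk2b and Slc5a12 are 3 protein-coding genes whose RNA gave no count in the lungs of any mouse given LPS without YW3-56. They were chosen by the measured values themselves. Slc5a12 and Dipk2b were selected on their difference between LPS and control lungs, and Dipk2b and Kl on their difference between LPS plus YW3-56 and LPS lungs. They are 3 of the 55416 genes in the count files and 3 of the 18560 genes that had enough counts to be tested, and each passed that filter through the groups in which it had counts.

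Lung RNA was sequenced from 8 female C57BL/6J mice aged 6 to 8 weeks, at 24 h after lipopolysaccharide (LPS), the bacterial endotoxin used here to provoke endotoxic shock. The control group (3 mice) received the solvent dimethyl sulfoxide by tail vein and then saline in the peritoneum. The LPS group (3 mice) received LPS at 35 mg/kg. The dual-treatment group (2 mice) received YW3-56, an inhibitor of the protein arginine deiminases that turn arginine into citrulline, at 10 mg/kg in dimethyl sulfoxide and then LPS at 35 mg/kg. A dimethyl sulfoxide injection was stated for the control and dual-treatment mice and not for the LPS mice. So between dual treatment and LPS, the solvent and YW3-56 cannot be told apart. Likewise, between LPS and control, LPS and the lack of a stated solvent injection cannot be told apart. Each library came from a lung lobe of a single mouse, and the libraries held between 19061949 and 20908608 counts. Mice are numbered as labelled: control mice 1, 2 and 4, LPS mice 1, 6 and 7, and dual-treatment mice 2 and 5.

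Kl encodes klotho, a membrane protein that pairs with fibroblast growth factor receptors to form the receptor for the bone hormone FGF23, which lowers phosphate reabsorption and vitamin D activation in the kidney. Its outer part can be cut off by membrane proteases and circulates. Dipk2b encodes a divergent protein kinase domain protein of the secretory pathway, a family of little-known function, and its human counterpart is known from vascular endothelium. Slc5a12 encodes a sodium-coupled transporter that takes up lactate and related monocarboxylates, known chiefly from the proximal tubule of the kidney and from the intestine.

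Kl, Dipk2b and Slc5a12 had 0 counts in each of the 3 LPS libraries, as did 70 of the 18560 tested genes (0.377%). The 3 genes had counts in every control and every dual-treatment library. They differed from each other in the dual-treatment group, where Kl and Dipk2b were at or above control levels and Slc5a12 was below them in both mice.

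Kl gave 23, 36 and 25 counts in control mice 1, 2 and 4. It gave 32 counts in dual-treatment mouse 2 and 62 in mouse 5. Both dual-treatment mice had more than the lowest control mouse, and mouse 5 was above every control. In CPM (counts scaled to library size with the trimmed mean of M-values, TMM), Kl was 1.12, 1.69 and 1.15 in the control mice, 0 in each LPS mouse, and 1.45 and 2.72 in the dual-treatment mice. The group means were 1.32 ± 0.319 CPM in control (SD, n = 3) and 2.09 ± 0.897 CPM after dual treatment (SD, n = 2). The ranges of control and dual treatment overlapped.

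Dipk2b gave 64, 53 and 94 counts in control mice 1, 2 and 4. It gave 71 counts in dual-treatment mouse 2 and 185 in mouse 5. Mouse 2 fell inside the control range and mouse 5 above it. In CPM, Dipk2b was 3.13, 2.48 and 4.32 in the control mice, 0 in each LPS mouse, and 3.22 and 8.11 in the dual-treatment mice. The means were 3.31 ± 0.93 CPM in control (SD, n = 3) and 5.67 ± 3.46 CPM after dual treatment (SD, n = 2). As for Kl, mouse 5 was the highest of the 8 libraries.

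Slc5a12 gave 89, 79 and 108 counts in control mice 1, 2 and 4. It gave 1 count in dual-treatment mouse 2 and 30 in mouse 5. Both dual-treatment mice were below every control mouse, without overlap, and mouse 2 was close to the LPS mice. In CPM, Slc5a12 was 4.35, 3.7 and 4.96 in the control mice, 0 in each LPS mouse, and 0.0453 and 1.32 in the dual-treatment mice. The means were 4.34 ± 0.629 CPM in control (SD, n = 3) and 0.681 ± 0.898 CPM after dual treatment (SD, n = 2). The SD after dual treatment exceeded the mean.

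**Figure D1:**
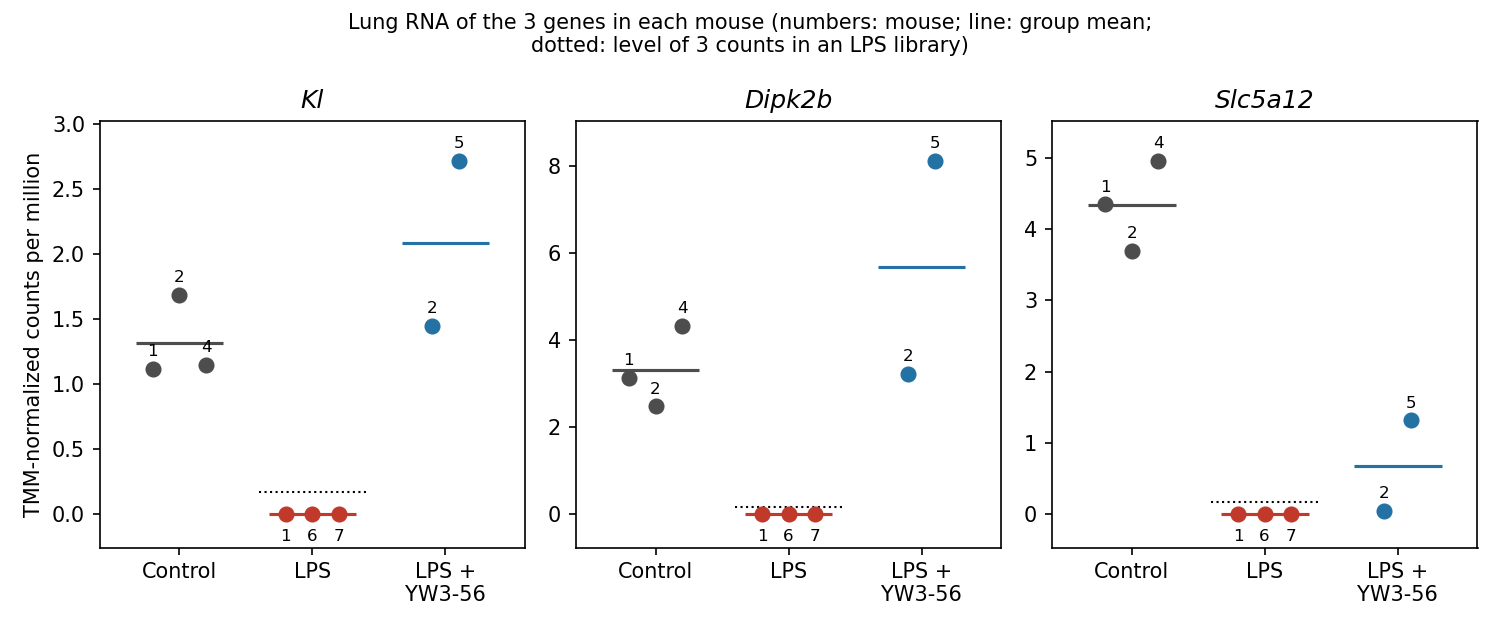
Level of Kl, Dipk2b and Slc5a12 in each of the 8 mice, in TMM-normalized CPM, with the group mean as a line and the level of 3 counts in an LPS library (0.173 CPM on average) as a dotted line. All 3 genes were at 0 in the 3 LPS mice, and Slc5a12 was below every control in both dual-treatment mice (0.0453 and 1.32).

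A count of 0 sets an upper limit rather than a level. At 3 counts per library, the limit was 0.178, 0.173 and 0.167 CPM in LPS mice 1, 6 and 7, which covers counting error only. Against the mean of those limits, control lungs had at least 7.64-fold higher Kl, at least 19.2-fold higher Dipk2b and at least 25.1-fold higher Slc5a12. The lowest control mouse was at least 6.51-fold above the limit for Kl, at least 14.4-fold for Dipk2b and at least 21.4-fold for Slc5a12. These bounds follow the control levels, since all 3 genes shared the same limit, and they do not rank how far each gene fell.

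Dual-treatment lungs had at least 12.1-fold higher Kl and at least 32.8-fold higher Dipk2b than that limit. The lower of both mice, mouse 2, was at least 8.4-fold above it for Kl and at least 18.6-fold for Dipk2b, and mouse 5 at least 15.7-fold and 47-fold. For Slc5a12, mouse 5 was at least 7.62-fold above it, while mouse 2, with 1 count, was not above it and has no bound. The genes were selected on contrasts with LPS, with their 0 counts there known, so no test of those contrasts is given. The working name of the 3 genes, silenced by LPS, fits the absence of counts, but counts measure steady RNA in whole lung and Kl had at most 36 counts in any control mouse, so a remainder of up to about the limit was not detectable at this depth. In whole-lung libraries, fewer cells that express a gene and less RNA per cell cannot be told apart.

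The LPS and control groups differed widely across the genome. Of the 18560 tested genes, 17.9% were called higher and 21.3% lower in LPS than in control lungs, where called means a fold change over 2 and an adjusted p under 0.05 in edgeR's quasi-likelihood test. Between dual treatment and LPS, 19.8% were called higher and 14% lower. The median log2 fold change of all tested genes was -0.01 for LPS against control. Scaled by library size alone it was -0.29, and the called genes then split into 2472 higher and 5124 lower in place of 3318 and 3961, so the changes below are relative to the TMM scale.

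Dual treatment against control is the contrast that did not choose the 3 genes, although both of its groups also took part in the contrasts that did. Choice on dual treatment against LPS favours high dual-treatment values, as for Kl. Choice on LPS against control favours high control values, as for Slc5a12. The directions of Kl and Slc5a12 here are those the choice favours, and the p-values and intervals below do not allow for it. In it, 5.25% of the tested genes were called higher and 1.9% lower. None of the 3 genes was called: 0 of 3 by the adjusted p of edgeR or DESeq2, and 1 of 3, Slc5a12, at an unadjusted p under 0.05. Kl had a log2 fold change of 0.66 (SE 0.451, edgeR adjusted p = 0.375), with both dual-treatment mice above 2 of the 3 controls. Dipk2b had a log2 fold change of 0.77 (SE 0.44, edgeR adjusted p = 0.287), which rested on mouse 5: without it the value was -0.07, and without mouse 2 it was 1.26. Without mouse 5 the Kl value was 0.11, and without mouse 2 it was 1.01. A p above the threshold does not show that the levels were equal.

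Slc5a12 had a log2 fold change of -2.65 between dual-treatment and control lungs (SE 0.857, edgeR adjusted p = 0.0779), lower in 2 of 2 mice. The call turned on the processing and on a single mouse. Without dual-treatment mouse 5 the log2 fold change was -6.42 (edgeR adjusted p = 0.00206), without mouse 2 it was -1.75 (edgeR adjusted p = 0.0765), and with no filter on low counts it was -2.65 (edgeR adjusted p = 0.00165). Over the 15 alternatives with an adjusted p, it ran from 0.00165 to 0.198.

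Each dual-treatment mouse was also set against the pooled control counts, with an exact 95% interval that covers counting error only and not the spread between mice. Kl was at 1.1 times the pooled control level in mouse 2 (0.707 to 1.67) and at 2.06 times in mouse 5 (1.46 to 2.89). Dipk2b was at 0.97 times in mouse 2 (0.73 to 1.27) and at 2.44 times in mouse 5 (2 to 2.99). Slc5a12 was at 0.0104 times in mouse 2 (0.000263 to 0.0587) and at 0.303 times in mouse 5 (0.201 to 0.443). So in mouse 2 the intervals of Kl and Dipk2b included the control level and that of Slc5a12 lay below it, while in mouse 5 Kl and Dipk2b lay above it and Slc5a12 below.

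All 3 genes were higher in mouse 5 than in mouse 2. The difference in log2 CPM was 0.86 for Kl, 1.31 for Dipk2b and 3.29 for Slc5a12, the last being the 3rd highest of the 18560 tested genes. Kl stood at rank 1060 and Dipk2b at rank 400 from the top. Over all tested genes the median difference was 0.01, and 51.5% of genes were higher in mouse 5. Among the 3961 genes called lower in LPS than in control lungs the median was 0.27, with 75.4% higher in mouse 5, and among the 3318 called higher it was -0.22, with 26.8% higher in mouse 5. The direction seen in the 3 genes was thus that of most genes that were lower after LPS, and the mice cannot be told apart from any difference in how their lungs were sampled.

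Levels between genes were compared per kilobase of exon. In control lungs Dipk2b stood at 0.946 ± 0.266 CPM per kb, Slc5a12 at 0.765 ± 0.111 and Kl at 0.142 ± 0.0342 (SD, n = 3), beside a median of 2.56 over 18488 genes. Dipk2b and Slc5a12 did not differ beyond their spread, and Kl was below both. Per length, 31.1% of these genes were below Dipk2b, 27.9% below Slc5a12 and 8.74% below Kl. After dual treatment the order was Dipk2b at 1.62 ± 0.989, Kl at 0.223 ± 0.0962 and Slc5a12 at 0.12 ± 0.159 CPM per kb (SD, n = 2), where Kl and Slc5a12 did not differ beyond their spread.

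The 3 genes were compared with the other genes at 0 in each LPS library. Of those 70 genes, 19 were protein-coding. The median control level of all 70 was 0.562 CPM, below that of each of the 3. By control level Slc5a12 ranked 1st, Dipk2b 2nd and Kl 5th. Only 7 of the 14709 tested genes with at least 20 counts in each control mouse were at 0 in each LPS library. They were Kl, Dipk2b, Slc5a12 and the genes Gm47732, AI197445, Gm42741 and 6030445D17Rik, none of them annotated as protein-coding. By level after dual treatment, Dipk2b ranked 1st, Kl 4th and Slc5a12 17th of the 70.

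Both directions seen among the 3 genes after dual treatment occurred among the 70. The mean was higher in dual treatment than in control for 23 of them, as for Kl and Dipk2b, and lower for 47, as for Slc5a12. By edgeR's adjusted p, 0 of the 70 were called higher in dual treatment than in control and 4 lower, Vstm2b among them. Over all tested genes the shares were 5.25% higher and 1.9% lower. The 70 passed the filter on low counts only through their control or dual-treatment counts. Their split and calls between those groups therefore depend in part on that filter. Among the 70, the counts were 2 and 10 at an unadjusted p under 0.05, and 0 and 1 by DESeq2's adjusted p. Gm47732, a long noncoding RNA, was also higher after dual treatment, with 42, 25 and 29 counts in the control mice and 62 and 52 after dual treatment. Vstm2b, the protein-coding gene next in rank after Kl, had 17, 30 and 24 counts in control and 2 and 7 after dual treatment, nearer to Slc5a12. Its call had an edgeR adjusted p of 0.0497 and was lost without any 1 of the 5 control and dual-treatment mice. For scale, 113 tested genes were at 0 in each control library and 91 in both dual-treatment libraries.

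**Figure D2:**
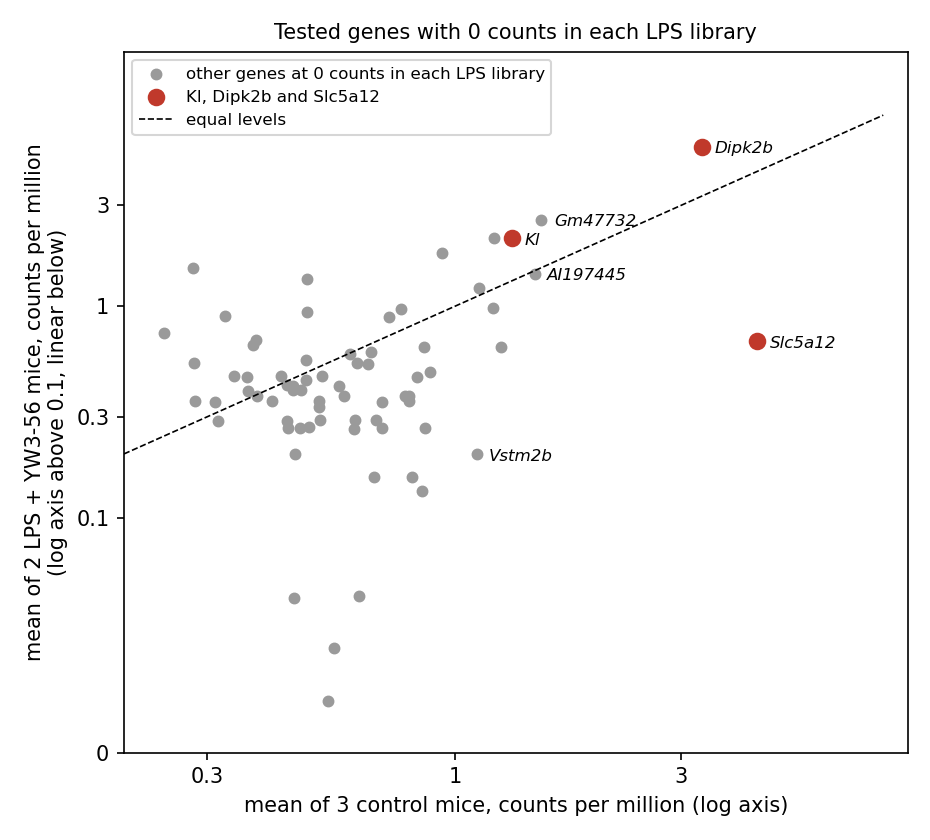
Mean level in the 2 dual-treatment mice against the mean level in the 3 control mice, in CPM, for the 70 tested genes with 0 counts in each LPS library, with equal levels as a dashed line. Kl (1.32 and 2.09) and Dipk2b (3.31 and 5.67) lie above the line and Slc5a12 (4.34 and 0.681) below it.

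Over the 8 libraries, the log2 CPM of Kl and Dipk2b had a Pearson r of 0.989. Slc5a12 had an r of 0.761 with Kl and 0.781 with Dipk2b. These values describe libraries that share the same 3 groups, and for all pairs the 0 counts in LPS carry much of the value.

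The genes whose pattern was most like Kl were Pip5k1c (r = 0.997), a phosphatidylinositol phosphate kinase, Ldah (0.996), a lipid droplet hydrolase, and Pigq, Atpsckmt and Them6 (0.995 each). For Dipk2b they were Nagk (0.999), an N-acetylglucosamine kinase, the kinase gene Cdk5, Lage3 and the lysosomal peptidase gene Tpp1 (0.997 each), and Gm38250 (0.996). They did not match Kl and Dipk2b in the size of the change. Pip5k1c was at 124 CPM in control and 81.7 in LPS lungs and Nagk at 29.8 and 7.4, where Kl and Dipk2b were at 0. Gm38250 alone was also at 0 in each LPS library, from 15, 15 and 16 counts in control and 13 and 27 after dual treatment. Between dual treatment and control these 10 genes had log2 fold changes from 0.05 to 0.29.

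For Slc5a12 the most similar were Lrat and Pkdrej (r = 0.996 each), Notum and Ptprb (0.995 each) and Fam110a (0.994). Lrat, which esterifies retinol for storage, had a pattern close to that of Slc5a12 at far more counts: 2662, 2685 and 3132 in control, 74, 45 and 62 in LPS, and 135 and 991 in dual-treatment mice 2 and 5. Its log2 fold change between dual treatment and control was -2.42, and it was -1.65 without mouse 2 and -4.47 without mouse 5. Ptprb, an endothelial receptor phosphatase, had a log2 fold change of -1.19, and -0.79 without dual-treatment mouse 2. These genes were chosen for following Slc5a12 over the same 8 libraries, the dual-treatment mice included. A test of that contrast would restate the choice, so none is given here. With a prior count of 0.5 in place of 2, 2 of the first 5 genes for Kl, 4 for Dipk2b and 3 for Slc5a12 recurred, and by Spearman's rho 0, 1 and 0, so the lists depend on the measure.

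The 3 genes lie on different chromosomes. In GRCm39 Kl lies at chr5:150876072-150917284 on the plus strand with 5 merged exon blocks, Dipk2b at chrX:18281120-18327636 on the minus strand with 8, and Slc5a12 at chr2:110427639-110479688 on the plus strand with 17. No annotated gene overlaps any of them, so their counts do not depend on a strand setting for an overlapping partner.

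Of the 12 nearest tested neighbours, 2 on each side of each gene, none was at 0 in LPS. Around Kl, Pds5b (142 kb away) and Stard13 (43.7 kb) were lower in LPS than in control, with log2 fold changes of -1.73 and -1.06, and N4bp2l2 at 286 kb had 0.12 and 1700028E10Rik at 375 kb had -0.04. Stard13 was at -1 and not called without LPS mouse 1. Around Dipk2b the nearest gene, Kdm6a at 134 kb, had a log2 fold change of 0.87, Fundc1 at 843 kb had -0.12, Slc9a7 at 1640 kb had 0.7, and only Chst7 at 1600 kb was called, at -2.62. Around Slc5a12, Fibin at 234 kb was lower in LPS (-2.15), Bbox1 at 283 kb had 0.44, Lpcat4 at 1590 kb was higher (1.24, and 0.96 and not called by library size alone) and Nop10 at 1610 kb had -0.46. After dual treatment, 1 of the 12 was called against control, 1700028E10Rik near Kl, with a log2 fold change of 2.08 (edgeR adjusted p = 0.00952), and it was not called without mouse 2.

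The start regions of Kl and Dipk2b are shown because these 2 genes shared 0 counts in LPS and control levels or more after dual treatment, a pattern partly fixed by how they were chosen. Among the controls they did not move together: mouse 2 was the highest for Kl and the lowest for Dipk2b. RefSeq (build GRCm38.p6) gives 300 bases around an annotated start, at chr5:150952357-150952656 on the plus strand for Kl and chrX:18461348-18461647 on the minus strand for Dipk2b, while Slc5a12 was not matched. Capitals mark matches, on either strand, to the motifs searched: the TATA box (letters TATAAA), the CCAAT box of that spelling, the GC box (letters GGGCGG), the AP-1 motif (letters TGANTCA) and the 10-base consensus of NF-kappaB.
Kl: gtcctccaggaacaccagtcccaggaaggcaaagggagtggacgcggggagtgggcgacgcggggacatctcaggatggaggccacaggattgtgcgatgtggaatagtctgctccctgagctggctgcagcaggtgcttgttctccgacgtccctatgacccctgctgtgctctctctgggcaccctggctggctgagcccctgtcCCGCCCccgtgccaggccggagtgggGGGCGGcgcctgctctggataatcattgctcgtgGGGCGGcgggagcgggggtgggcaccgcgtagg
Dipk2b: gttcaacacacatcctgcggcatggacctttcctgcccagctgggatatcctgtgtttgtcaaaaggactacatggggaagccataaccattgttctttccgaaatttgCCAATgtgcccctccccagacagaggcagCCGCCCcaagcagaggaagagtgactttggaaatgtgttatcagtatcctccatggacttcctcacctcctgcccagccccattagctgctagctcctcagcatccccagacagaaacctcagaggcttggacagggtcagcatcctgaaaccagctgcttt
The Kl window held 3 matches to the GC box, at positions 208, 234 and 268 counted from the 5′ end, the first on the opposite strand. The Dipk2b window held 1 match to the GC box at position 139 on the opposite strand and 1 to the CCAAT box at position 110. Of all 32851 windows, 35.7% held the GC box and 37.4% the CCAAT box. Neither window held the TATA box (13.6% of windows), the AP-1 motif (7.81%) or that NF-kappaB pattern (4.79%). The windows differed in composition: Kl had 67.3% G+C and 19 CG pairs and Dipk2b 53% and 3, beside medians of 52.7% and 7. These matches describe letters in the windows and say nothing of binding in these lungs.

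Among the partners of klotho, 7 of 10 listed klotho family, FGF ligand and FGF receptor genes were tested. Against control, 1 was called higher and 2 lower in LPS (median log2 fold change -0.57), and 0 higher and 1 lower after dual treatment (median -0.27, beside 0 over all tested genes). Over all tested genes, 17.9% were called higher and 21.3% lower in LPS, and 5.25% and 1.9% after dual treatment. The counts of this and the later lists stand beside those shares, and no list was tested against them. Fgf23, the ligand that signals through Kl, went the opposite way from Kl. It had 0, 5 and 3 counts in control, 67, 37 and 52 in LPS, and 17 and 3 in dual-treatment mice 2 and 5, without overlap between control and LPS. Its log2 fold change was 4.51 for LPS against control (SE 0.785, edgeR adjusted p = 0.0007) and -2.72 for dual treatment against LPS (edgeR adjusted p = 0.0136), the second lost without mouse 5 (-1.97).

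Fgfr1, the receptor best known to pair with Kl, had a log2 fold change of 0.77 in LPS, under the fold threshold. Fgfr3 was lower in LPS (-2.43) and not called after dual treatment (-0.57), where Kl was on the other side of control (0.66, not called). Fgfr4 was lower in LPS (-1.84) and after dual treatment (-1.93, edgeR adjusted p = 0.0129; -2.98 without mouse 5, also called). Klb, the sister co-receptor of Kl, had between 0 and 27 counts and was called in no comparison of all 8 libraries, but between dual treatment and LPS without mouse 5 (3.32). Of the 3 proteases known to shed klotho, Bace1 was lower in LPS (-1.3), Adam10 was at -0.6 and Adam17 at 0.01.

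Of 14 listed genes of vitamin D and phosphate handling, which klotho and FGF23 control in the kidney, 10 were tested, and 3 were higher and 1 lower in LPS (median log2 fold change 0.29). Cyp27b1, which activates vitamin D, had 8, 1 and 0 counts in control, 74, 64 and 88 in LPS, and 0 and 2 after dual treatment, so that it was high in the 3 libraries in which Kl was at 0. Its log2 fold change for LPS was 4.86 (edgeR adjusted p = 0.000383). The vitamin D receptor gene Vdr (2) and the phosphate transporter gene Slc20a1 (1.66) were higher in LPS, and Slc34a2, the phosphate transporter of type 2 alveolar cells, was lower (-2.26). Between dual treatment and control 0 of the 10 were called (median -0.14) by the adjusted p of edgeR or DESeq2. The count was also 0 at an unadjusted p under 0.05 with the fold change over 2 kept. Below that fold, Vdr (0.58) and Trpv6 (0.56) were higher and Xpr1 (-0.27) lower at that edgeR p.

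**Figure D3:**
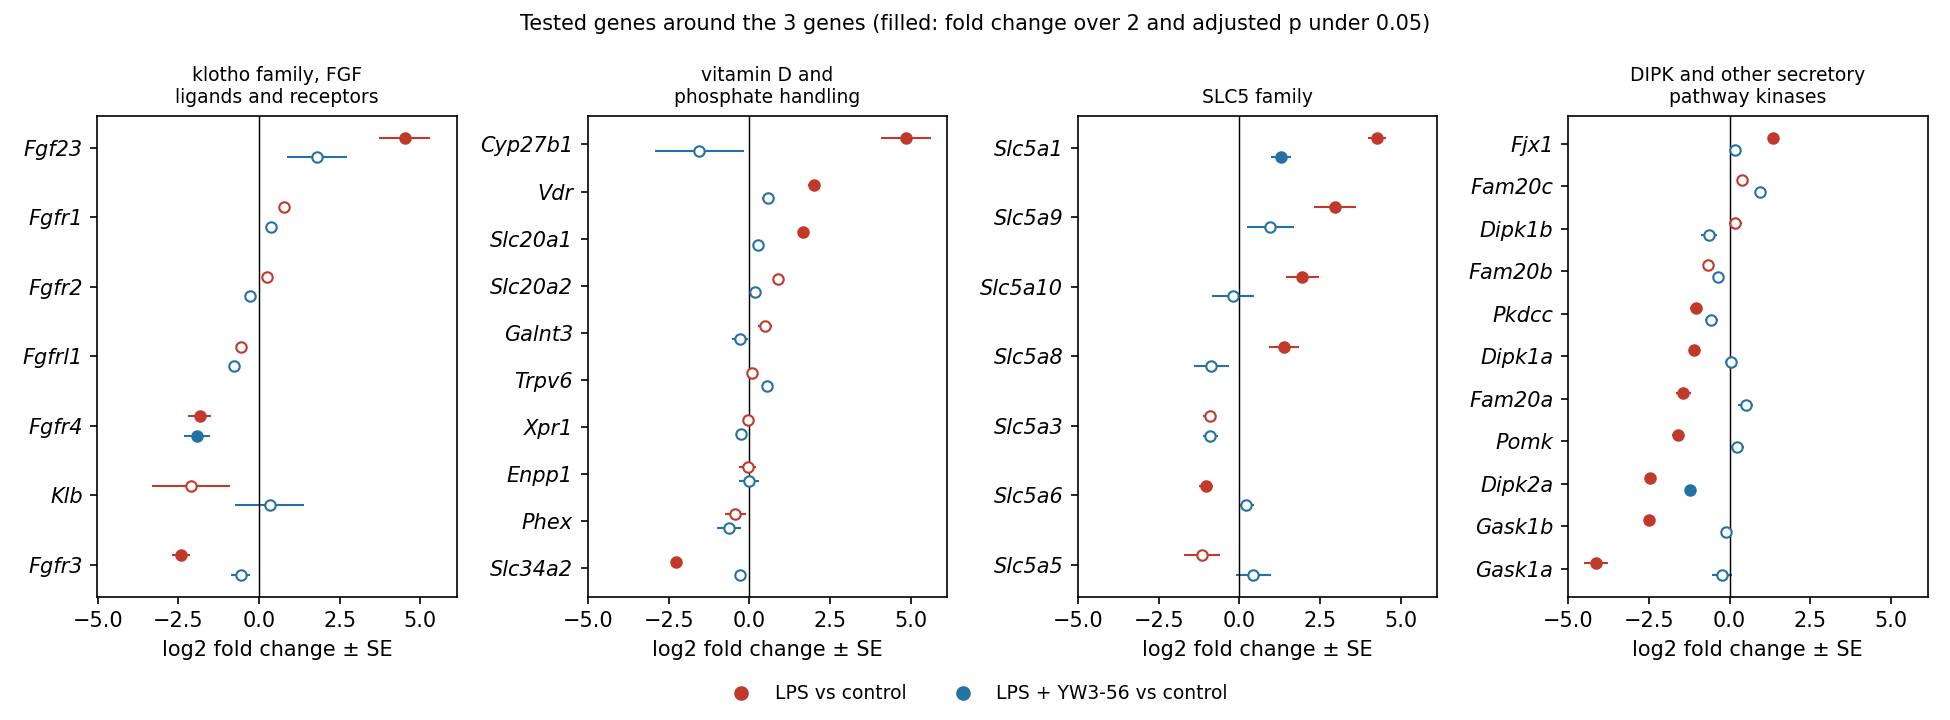
Log2 fold change with its standard error for LPS against control (red) and LPS + YW3-56 against control (blue), for tested genes of 4 lists around Kl, Slc5a12 and Dipk2b, filled where called. Fgf23 (4.51) and Cyp27b1 (4.86) were the highest for LPS in their lists and Gask1a (-4.13) the lowest.

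Of 12 other genes of the SLC5 family of Slc5a12, 7 were tested, and 4 were called higher and 1 lower in LPS (median log2 fold change 1.38). Scaled by library size alone the counts were 3 and 3. The glucose transporter gene Slc5a1 had 34, 50 and 41 counts in control, 417, 681 and 890 in LPS, and 115 and 101 after dual treatment, the reverse of Slc5a12 (log2 fold change 4.27, edgeR adjusted p = 2.04e-06). Slc5a8, the high-affinity counterpart of Slc5a12, had 49, 50 and 36 counts in control, 37, 87 and 169 in LPS, and 24 and 28 after dual treatment, with a log2 fold change of 1.38 for LPS (edgeR adjusted p = 0.0223). The Slc5a8 call rested on some libraries: the log2 fold change was 0.77 without LPS mouse 7, 1.13 and not called by library size alone, 1.23 and not called without control mouse 4, and 0.05 without LPS mice 6 and 7. Slc5a9 (2.97, and 1.89 and not called without LPS mice 6 and 7) and Slc5a10 (1.95) were also higher, and Slc5a6 was lower (-1.04, and not called without control mouse 4 or LPS mouse 1). Slc5a3 (-0.92) and Slc5a5 (-1.17) were not called, but by library size alone both were called lower (-1.2 and -1.45). Against control, dual treatment gave 1 call in the family, Slc5a1 at 1.29 (edgeR adjusted p = 0.0183), which was lost without control mouse 1 or 4 or dual-treatment mouse 2.

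Among 13 listed genes of monocarboxylate and lactate handling, the substrates of Slc5a12, 12 were tested. In LPS 3 were called higher and 0 lower (median log2 fold change 0.45). The 3 were Slc5a8, Slc16a8 (3.28) and the lactate exporter gene Slc16a3 (1.36, and 0.98 without LPS mice 6 and 7). With the fold change over 2 kept, 0 were lower also by DESeq2 and at an unadjusted p under 0.05. Below that fold, Slc16a7 (-0.54) and Ldhb (-0.41) were lower at that edgeR p, and Ldhd (0.91), Mpc1 (0.87), Ldha (0.56) and Emb (0.35) were higher. Slc16a3 was also higher after dual treatment than in control (1.94, edgeR adjusted p = 0.000891), where Slc5a12 was lower in both mice. Slc16a1, the widespread monocarboxylate transporter gene, was at 0.07 in LPS and 0.02 after dual treatment.

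Of 12 listed DIPK and other secretory-pathway kinase genes, 11 were tested, and 7 were lower and 1 higher in LPS (median log2 fold change -1.09). Dipk2a, the closest relative of Dipk2b, had 2216, 2545 and 2360 counts in control, 318, 369 and 373 in LPS, and 860 and 1298 after dual treatment. It was lower in LPS (-2.46, edgeR adjusted p = 1.18e-06) and, unlike Dipk2b, also after dual treatment (-1.22, edgeR adjusted p = 0.000967). Of the tested genes Gask1a came nearest to absence in LPS, with 84, 92 and 108 counts in control, 3, 4 and 6 in LPS, and 59 and 111 after dual treatment (log2 fold change -4.13, edgeR adjusted p = 1.13e-05). Gask1b (-2.51), Pomk (-1.59), Fam20a (-1.43), Dipk1a (-1.09) and Pkdcc (-1.04) were also lower and Fjx1 was higher (1.34), while Dipk1b was at 0.18. Dipk1a was not called without LPS mouse 7 (-0.96), nor was Pkdcc without control mouse 2 or 4 or LPS mouse 7 (-0.98, -0.96 and -0.99). After dual treatment 1 of the 11 was called lower than control, Dipk2a.

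Markers of several cell types differed between the groups. Of 10 endothelial markers, 6 were called lower in LPS than in control (median log2 fold change -2.06) and 0 after dual treatment (median -0.35). With the fold change over 2 kept, 0 were lower after dual treatment also by DESeq2 and at an unadjusted p under 0.05. Below that fold, Kdr (-0.9), Tek (-0.65), Erg (-0.62), Esam (-0.47) and Egfl7 (-0.44) were lower at that edgeR p, and Pecam1 (0.6) was higher. The summed levels of the endothelial markers were 4250, 4390 and 4650 CPM in control, 2520, 2040 and 2000 in LPS, and 3870 and 4050 after dual treatment. Without mouse 5, Kdr (-1.1) and Tek (-1.11) were called lower after dual treatment. The most abundant in control lungs, Egfl7, had a log2 fold change of -2.66 in LPS, while Cdh5, the most abundant over all libraries, had 0.17, so markers of 1 cell type did not move alike, and none was at 0. Of 5 general capillary markers, 4 were lower in LPS (median -2.02) and 3 after dual treatment (median -1.07; Aplnr, Kit and Ptprb, but not Plvap at 0.23), with summed levels of 1860, 1940 and 2090 CPM in control, 607, 484 and 498 in LPS, and 1060 and 1360 after dual treatment. The most abundant was Ptprb, which like Kit was not called after dual treatment without mouse 2, and the Aplnr call was lost without any 1 of the controls or mouse 2. Of 6 alveolar fibroblast markers, 3 were called lower in LPS (median -0.81) and 0 after dual treatment (median -0.77), by edgeR's or DESeq2's adjusted p. At an unadjusted p under 0.05 with the fold change over 2 kept, 1 was lower after dual treatment, Itga8. Without mouse 5, Tcf21, Inmt and Itga8 were lower by more than 2-fold (-1.5, -1.32 and -1.97). Tcf21 was also called without control mouse 1 or 4. The summed levels of these markers were 4500, 4640 and 4880 CPM in control, 1370, 1340 and 1360 in LPS, and 2390 and 3180 after dual treatment, Inmt being the most abundant. Some further lists were also partly lower in LPS, such as aerocytes (4 of 5) and venous endothelium (3 of 4, with 1 called higher). Others were not: 6 of 6 neutrophil markers were higher in LPS and 5 after dual treatment, and 5 of 5 red cell and 5 of 6 heart muscle markers were lower after dual treatment only. Of those heart muscle calls, Myl7, Nppa and Tnnt2 were lost without mouse 2 (-1.69, -1.48 and -1.27), and Nppa and Tnnt2 also without mouse 5 or control mouse 2 or 4. The part of these cells in the levels of Kl, Dipk2b and Slc5a12 was not tested.

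Since Kl and Slc5a12 are best known from kidney, kidney markers were examined. Of 17 listed, 6 were tested, with 1 higher and 1 lower in LPS and 2 higher after dual treatment. Between dual treatment and LPS, 3 were called higher and 1 lower (median log2 fold change 1.05), and 2 and 1 by DESeq2's adjusted p. Slc22a6, Kap, Nphs1 and Slc7a13 were at 0 in all 8 libraries. Umod was at 0 in every control and at most 4 counts elsewhere. Other markers were present and did not move alike. Slc13a3 was higher in LPS and after dual treatment (log2 fold changes 4.28 and 2.12), the reverse of Slc5a12, and Lrp2 was lower in LPS (-1.47). Slc22a12 was higher after dual treatment than in control only at an unadjusted edgeR p under 0.05 (1.35) or in some alternatives. With no filter on low counts it was at 1.34. Without LPS mice 6 and 7, Slc22a12 was at -2.61 for LPS against control. Cubn went the other way in LPS, higher at an unadjusted edgeR p under 0.05 (2.86). Aqp2 went the same way as Kl, with 7, 13 and 8 counts in control, 3, 4 and 3 in LPS, and 34 and 25 after dual treatment. Its call after dual treatment (1.57, edgeR adjusted p = 0.0448) was lost by DESeq2 and without any 1 of the 5 control and dual-treatment mice. The part of kidney RNA in the levels of Kl and Slc5a12 was not tested. The summed level was 96.3, 80.6 and 110 CPM in control, 91.5, 72.1 and 71.8 in LPS, and 66 and 101 after dual treatment, most of it from Lrp2, which lung also expresses.

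LPS mice 6 and 7 stood apart from LPS mouse 1 in genes of squamous epithelium and skeletal muscle. All 6 squamous markers were called higher in LPS, with summed levels of 0.293, 0.469 and 0.413 CPM in control, 0.593, 716 and 1950 in LPS mice 1, 6 and 7, and 1.86 and 3.38 after dual treatment, and Krt13 was the most abundant. The 6 skeletal muscle markers, of which 5 were tested and called higher, summed to 8.16, 18 and 12.6 CPM in control, 15.9, 363 and 994 in LPS, and 4.17 and 5.57 after dual treatment, and Acta1 was the most abundant. Without LPS mice 6 and 7, Acta1 (0.64), Ckm (0.09), Tnnt3 (0.99) and Krt13 (0.63) fell under the fold threshold for LPS against control. Kl, Dipk2b and Slc5a12 were at 0 in LPS mouse 1 as well, where both sums were far below those of mice 6 and 7, but 0 counts in every LPS mouse belong to how the genes were chosen.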

How the data were processed

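Raw counts per gene were deposited by the authors for each of 8 libraries, without normalization; the submitters' processing notes name FastQC 0.11.9, Trim Galore, HISAT2 2.2.1, featureCounts 2.0.1 and GRCm39. The annotation release, strand setting and treatment of multi-mapping reads are not given in the sources used here. GENCODE M39 matched 54749 of 55416 identifiers. Doses, time and age come from the study's methods.

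Tests used edgeR 4.0.16 under R 4.3.3 (filterByExpr, TMM, quasi-likelihood test, all 8 libraries, 1 group factor), with p adjusted by Benjamini-Hochberg over 18560 genes. The design left 5 nominal residual degrees of freedom. A group at 0 in every library adds no information on spread, so Kl, Dipk2b and Slc5a12 had fewer. Genes were called at a fold change over 2 and an adjusted p under 0.05. Counts by DESeq2 or at an unadjusted p kept the fold change over 2. DESeq2 1.42.0 was an alternative. The procedure was tested on simulated counts. The SE of a log2 fold change was its absolute value divided by the square root of the quasi-likelihood F statistic. Log2 CPM used a prior count of 2. Exact (Clopper-Pearson) intervals were conditional on pooled counts.

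The members and lists were chosen with earlier results of these data known. Named were the 3 genes, the listed pathway and marker genes, per gene the 5 tested genes with the highest Pearson r and the 2 nearest tested genes on each side, and the 10 tested genes at 0 in each LPS library with the highest control mean. Of the 3 genes, 2 matched the RefSeq start windows.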

Additional observations from a re-analysis of the deposited data

How the results depend on the processing

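Alternatives were DESeq2, scaling by library size alone or by the upper quartile, other filters on low counts, fits on the 2 compared groups, unadjusted p, and leaving out each mouse; a group left with 1 mouse was assumed to vary like the others. Leaving out LPS mice 6 and 7 was chosen after seeing the data. For dual treatment against control, Dipk2b ran from -0.07 (without dual-treatment mouse 5, reversed) to 1.26 and Slc5a12 from -6.42 to -1.75 over the left-out mice; Slc5a12 was also called with no filter (-2.65, adjusted p = 0.00165) and at its unadjusted p of 0.0161 (-2.65). Genes called higher ran from 596 without dual-treatment mouse 2 to 1120 without mouse 5, against 974, and genes called lower from 156 without mouse 2 to 711 without mouse 5, against 353, with 227 without control mouse 2 and 637 at an unadjusted p. For dual treatment against LPS, scaling by library size gave 5118 higher and 1737 lower in place of 3666 and 2598. The bound for Slc5a12 in control over LPS was 30.6 by library size alone, and 427 genes had at most 3 counts in each LPS library. Without LPS mice 6 and 7, the log2 fold changes of Mylpf (-1.26) and Krt6a (-4.06) for LPS against control and of Mylpf (1.46), Krt13 (1.24), Krt6a (7.65) and Krtdap (5.83) for dual treatment against LPS reversed, and that of Krtdap for LPS against control was 0. The other bounds and the Kl value kept their direction under every alternative; the cause was not tested. No paired analysis was possible because compared groups share at most 1 mouse number. Groups of 3 and 2 mice limit what can be called, and a permutation of 3 against 2 mice cannot go below p = 0.1.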
